A study of Mus musculus with 6 samples.

Results

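The DEAD and DEAH box RNA helicase genes were followed here in the H3K27ac landscape of mouse embryonic stem cells (mESCs). They were chosen by name as the autosomal protein-coding genes of the GENCODE annotation of GRCm38 whose symbol is Ddx or Dhx followed by a number and at most a letter from a to c, with a single gene left out by that rule. This gave 50 genes, 34 with a Ddx and 16 with a Dhx symbol, of 20722 autosomal protein-coding genes. The study measured H3K27ac, an acetylation of histone H3 found at active promoters and enhancers, by ChIP-seq, and asked whether the mark depends on ongoing transcription. It had 6 samples, 2 replicates each of control cells given DMSO, of cells given 100 nM NVP-2 for 120 min and of cells given actinomycin D for 120 min, at a dose written as 800 nM in the sample labels and as 1 µg/ml in the treatment protocol. NVP-2 inhibits CDK9, a kinase that RNA polymerase II needs for elongation, and actinomycin D binds DNA and blocks RNA polymerases. All cells were of the E14Tg2A Rosa26-Cre Oct4-IRES-Puro line, which carries a Cre gene and a puromycin resistance marker, and were kept in N2B27 medium with LIF, PD0325901 and CT-99021, which hold mESCs in the naive state. HEK293T chromatin, from human embryonic kidney cells, served as a spike-in in every sample. The values below rest on a single deposited peak list for control cells, in which the authors pooled both control replicates and gave 22973 intervals in the mm10 build (GRCm38). It holds no height, count or score, so depth cannot be read from it, no value has a replicate error, and the treated libraries were not analysed here.

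RNA helicases of this superfamily bind RNA through a core of paired RecA-like domains and use ATP to open short duplexes or to strip proteins from RNA. The families are named after the amino acids of a conserved ATP-binding motif, Asp-Glu-Ala-Asp (DEAD) or Asp-Glu-Ala-His (DEAH). Their members act at nearly every step of RNA metabolism, from splicing and ribosome assembly to export, translation and decay, and a few sense viral RNA or act in germ cells. As a check of the labelled cell type, 6 of 7 stem cell marker genes had a control peak at the promoter, among them Pou5f1 with a peak of 34042 bp and Nanog with a peak of 36014 bp. Esrrb, also a stem cell marker, had none at the start of its longest isoform, and its nearest peak lay 33677 bp away. Other starts of the marker genes were not checked. Of the markers of other cell types, 1 of 4 fibroblast genes (Vim), 1 of 3 neural genes (Tubb3), 0 of 1 blood gene (Ptprc) and 0 of 1 liver gene (Alb) were marked, beside 50.1% of all autosomal coding promoters by the same rule.

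The promoters compared below differ first in their base sequence, so 5 are shown in full. Dhx9 had the widest promoter peak of the helicase genes, Ddx46 the median one and Dhx40 the narrowest, whereas Ddx58 and Ddx60 had none. Ddx60 was added after its values were seen. Each line gives 300 bases of RefSeq sequence of GRCm38.p6, from 250 bases before to 50 bases after the RefSeq start of the gene, written 5′ to 3′ along the gene, with CG dinucleotides (CpGs) in capitals.
Dhx9 promoter, chr1:153487611-153487910, minus strand: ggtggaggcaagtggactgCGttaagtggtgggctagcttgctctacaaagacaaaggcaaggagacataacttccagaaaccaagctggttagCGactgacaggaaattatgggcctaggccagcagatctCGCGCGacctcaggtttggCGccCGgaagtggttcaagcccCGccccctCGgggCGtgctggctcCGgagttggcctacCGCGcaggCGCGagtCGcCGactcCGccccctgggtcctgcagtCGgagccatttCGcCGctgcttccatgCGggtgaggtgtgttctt
Ddx46 promoter, chr13:55634749-55635048, plus strand: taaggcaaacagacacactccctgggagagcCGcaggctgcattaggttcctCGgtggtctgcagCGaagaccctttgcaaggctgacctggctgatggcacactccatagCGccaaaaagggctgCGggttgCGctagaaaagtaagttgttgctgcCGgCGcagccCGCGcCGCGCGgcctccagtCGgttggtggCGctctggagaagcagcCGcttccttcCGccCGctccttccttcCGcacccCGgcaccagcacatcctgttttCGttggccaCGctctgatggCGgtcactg
Dhx40 promoter, chr11:86807611-86807910, minus strand: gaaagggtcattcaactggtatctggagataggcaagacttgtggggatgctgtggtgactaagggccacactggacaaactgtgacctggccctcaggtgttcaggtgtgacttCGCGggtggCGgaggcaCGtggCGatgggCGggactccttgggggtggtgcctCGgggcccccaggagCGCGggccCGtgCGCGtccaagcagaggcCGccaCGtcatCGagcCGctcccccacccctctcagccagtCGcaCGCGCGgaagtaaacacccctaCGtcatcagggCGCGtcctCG
Ddx58 promoter, chr4:40239776-40240075, minus strand: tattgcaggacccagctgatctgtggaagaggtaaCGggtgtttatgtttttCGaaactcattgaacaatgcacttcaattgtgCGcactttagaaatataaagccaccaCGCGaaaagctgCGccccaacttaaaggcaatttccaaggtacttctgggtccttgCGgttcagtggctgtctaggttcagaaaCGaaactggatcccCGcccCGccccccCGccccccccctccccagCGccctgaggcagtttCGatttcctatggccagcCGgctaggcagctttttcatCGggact
Ddx60 promoter, chr8:61927837-61928136, plus strand: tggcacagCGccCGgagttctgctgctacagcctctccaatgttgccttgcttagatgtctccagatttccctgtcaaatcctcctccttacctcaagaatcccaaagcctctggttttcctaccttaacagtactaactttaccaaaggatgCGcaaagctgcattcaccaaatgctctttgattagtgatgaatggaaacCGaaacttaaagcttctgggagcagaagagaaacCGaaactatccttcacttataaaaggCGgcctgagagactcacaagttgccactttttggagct
The marked promoters of Dhx9, Ddx46 and Dhx40 held 22, 23 and 24 CpGs, whereas the unmarked promoter of Ddx58 held 15 and that of Ddx60 held 6. Over the 44 helicase promoters found in the RefSeq table the median was 24 CpGs, beside 14 for all coding promoters in the table. The promoters of Ddx39, Dhx38, Ddx6, Dhx58, Ddx23 and Ddx11 were not printed or searched.

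Nearly all helicase promoters carried H3K27ac in control cells. A promoter was taken as the 1 kb on either side of the transcription start site (TSS) of each gene's longest isoform on the genome, and was called marked when at least 1 bp of it lay in a peak. In total 47 of 50 helicase promoters were marked, or 94.0% (95% Wilson interval 83.8 to 97.9%), beside 10381 of 20722 autosomal coding promoters, or 50.1% (49.4 to 50.8%). The 3 unmarked promoters were those of Ddx58, Ddx60 and Dhx58, all linked to the RIG-I sensor pathway. These intervals reflect only the number of genes counted, since genes are not replicates of a condition. For 41 helicase genes a peak covered the TSS itself, or 82.0% (69.2 to 90.2%), beside 45.2% of all coding genes. The symbols did not separate the genes by mark, with 32 of 34 Ddx genes (94.1%, 80.9 to 98.4%) and 15 of 16 Dhx genes (93.8%, 71.7 to 98.9%) marked.

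Peaks at helicase promoters were of ordinary width. Their median was 1992 bp (95% order-statistic interval 1581 to 2815 bp, n = 47), beside 2124 bp (2071 to 2176 bp, n = 10381) for all marked coding promoters, and the interval of the helicases included the median of all genes. The order of the medians depended on the setting, since with the TSS inside a peak they were 2558 and 2315 bp and with all isoforms 2505 and 2176 bp. Above the median of all genes lay 22 of the 47. The upper quartile was 3125.5 bp for the helicases and 4688 bp for all genes. Very wide peaks were few, since 1 of 47 (2.13%) reached 10 kb, beside 1057 of all genes (10.2%). Peaks under 1 kb were about as frequent in both, with 5 of 47 (10.6%) and 1133 (10.9%). The Ddx genes had a median of 2261.5 bp and the Dhx genes of 1686 bp, with intervals of 1581 to 2895 bp and 1235 to 3155 bp that overlapped.

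**Figure D1:**
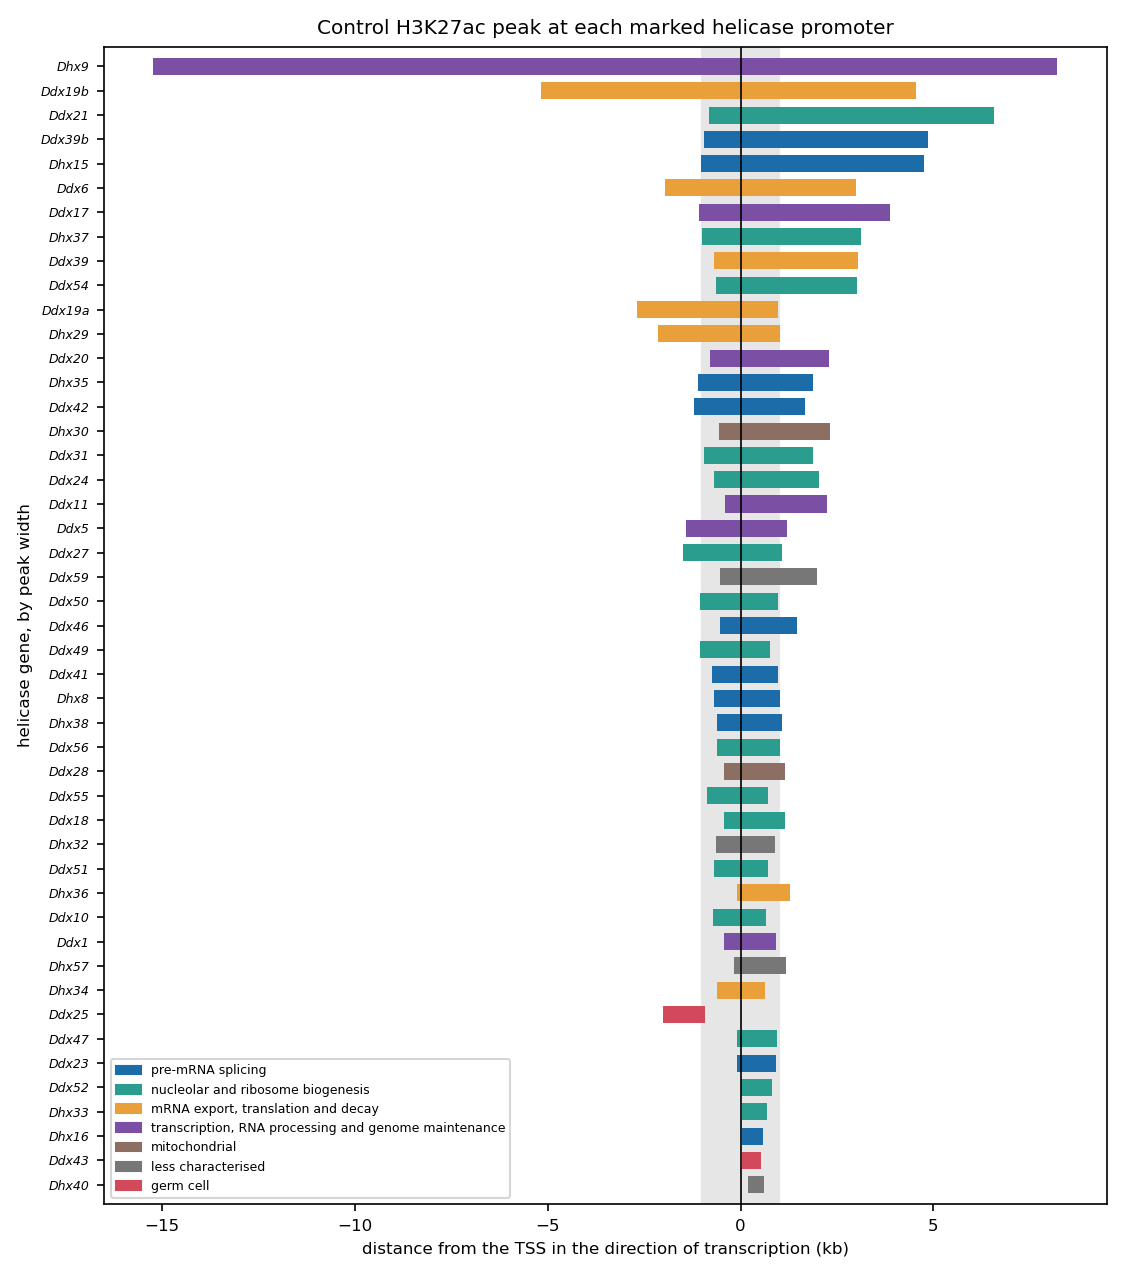
Extent of the control H3K27ac peak at each of the 47 marked helicase promoters, as distance from the TSS in kb in the direction of transcription (horizontal axis), with genes ordered by peak width (vertical axis) and bars coloured by role. The grey band is the promoter window of 1 kb on either side. The bar of Dhx9 runs from 15241 bp upstream to 8192 bp downstream, the bar of Ddx25 lies wholly upstream of the TSS, and the bars of Dhx40, Ddx43, Dhx16, Dhx33 and Ddx52 begin downstream of it.

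The peaks reached further into the gene than ahead of it. The median extent was 700 bp upstream and 1152 bp downstream of the TSS, beside 834 and 1158 bp for all marked coding genes. In 36 of 47 helicase genes (76.6%) the downstream arm was the longer, beside 67.4% of all. The downstream edge fell in intron 1 for 31 genes and in a later exon or intron for 14. It fell in exon 1 for Ddx28, whose transcript has 1 exon, and upstream of the TSS for Ddx25. The peak covered a median of 6.06% of the transcribed region, beside 6.14% for all marked genes.

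All 10 helicases of the spliceosome were marked, with widths from 562 to 5817 bp and a median of 1849.5 bp. The share of all autosomal coding promoters to set beside this and each role group below was 50.1%. The widest peaks of the group were at Ddx39b and Dhx15. Ddx39b, which acts in early spliceosome assembly and mRNA export, had a peak of 5817 bp (chr17:35240789-35246605) that reached 4859 bp into the gene and covered 40.6% of it, up to intron 4. Dhx15, which takes spent spliceosomes apart, had a peak of 5791 bp (chr5:52185753-52191543) that ended in intron 1, 4761 bp from the TSS. Both peaks began about as far upstream, at 957 and 1029 bp, so their width lay inside the genes. Dhx16, which remodels the spliceosome before the first step of splicing, stood at the other end with a peak of 562 bp (chr17:35879848-35880409) that began 29 bp downstream of the TSS.

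The other spliceosomal genes lay between these. Ddx23, a helicase of the U5 particle that lets the U6 RNA replace U1 at the splice site, had a peak of 1002 bp. Dhx38 and Dhx8, which act at the second step and at mRNA release, had peaks of 1686 and 1703 bp, and that of Dhx38 also held the TSS of Txnl4b, a divergent gene 31 bp away. Ddx41, a spliceosome component, had a peak of 1707 bp, and Ddx46, which acts with the U2 particle at the branch site, the median peak of all helicases at 1992 bp. Ddx42, which also acts on the U2 particle, had a peak of 2895 bp that held the divergent TSS of Ccdc47, 582 bp away. Dhx35, found in catalytic spliceosomes, had a peak of 2985 bp. In all 10 splicing genes the downstream arm was longer than the upstream arm.

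All 16 helicases of the nucleolus and of ribosome biogenesis were marked, with widths from 643 to 7387 bp and a median of 1721.5 bp. Ddx21, which binds ribosomal RNA precursors and also occupies promoters of RNA polymerase II genes, had the widest at 7387 bp (chr10:62595704-62603090), of which 6577 bp lay downstream of the TSS, up to intron 2. Its paralogue Ddx50 lies beside it on the same strand, with a TSS 48937 bp away and a peak of 2018 bp (chr10:62650255-62652272). The CpG observed over expected ratio of both promoters was nearly equal, at 0.844 for Ddx21 and 0.840 for Ddx50. Their GC content differed, at 56.3% and 69.1%, so Ddx50 was the richer in CpGs. The peak of Ddx21 was several times as wide. Dhx37, which releases the U3 small nucleolar RNA from the small subunit precursor, followed with 4126 bp, and Ddx54 with 3662 bp.

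Most other genes of this group had peaks of 1 to 3 kb. These were Ddx10 (1370 bp), Ddx51 (1417 bp), Ddx18 (1578 bp), Ddx55 (1581 bp), Ddx56 (1634 bp), Ddx49 (1809 bp), Ddx27 (2558 bp), Ddx24 (2737 bp) and Ddx31 (2815 bp), which are assembly factors of the large or small ribosomal subunit. The narrowest peaks were at Ddx47 (1020 bp), Ddx52 (807 bp) and Dhx33 (643 bp). Ddx47, a factor of small subunit assembly, was the only helicase gene whose mark depended on the isoform, since it was unmarked when the isoform with the longest spliced length was used. The peaks of Ddx52 (chr11:83942069-83942875) and Dhx33 (chr11:71003765-71004407) began 7 and 30 bp downstream of the TSS. In 4 genes the peak also held a divergent start, that of Noc4l at Ddx51 (34 bp away), Cope at Ddx49 (29 bp), Gtf3c4 at Ddx31 (99 bp) and Rita1 at Ddx54 (400 bp).

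**Figure D2:**
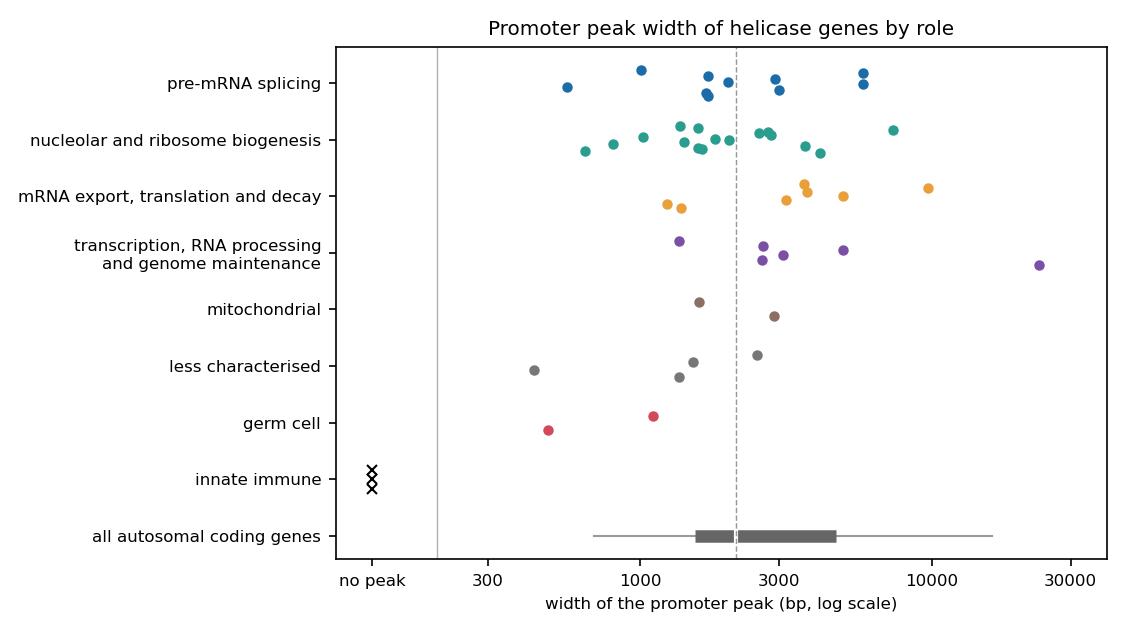
Width of the control H3K27ac peak at each helicase promoter in bp on a log scale (horizontal axis) by role (vertical axis), with 1 point per gene and crosses for the 3 genes without a promoter peak. The bottom line shows all 10381 marked autosomal coding genes, as the 5th to 95th percentile (thin), the quartiles (thick) and the median of 2124 bp (gap and dashed line). The genes placed in the innate immune group have no promoter peak, and only Dhx9 lies above 10 kb.

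The 7 helicases of mRNA export, translation and decay were all marked and had a median width of 3636 bp, in a range from 1235 to 9719 bp, with 5 of 7 above the median of all genes. Ddx19b, which releases export factors from mRNA at the nuclear pore, had a peak of 9719 bp (chr8:111027197-111036915) that extended 5164 bp upstream and 4554 bp downstream. That peak also held the TSS of Aars, an alanyl-tRNA synthetase gene transcribed in the opposite direction from 2151 bp away. Its paralogue Ddx19a, on the same strand with a TSS 33951 bp away, had a peak of 3636 bp (chr8:110996841-111000476) with 2676 bp upstream. Ddx19b had a promoter poorer in CpG than Ddx19a, with ratios of 0.514 and 0.903, yet the wider peak.

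Ddx6, which represses translation and promotes decapping of mRNA in P-bodies, had a peak of 4970 bp (chr9:44602924-44607893), with 1968 bp upstream and 3001 bp downstream. Ddx39, an export helicase closely related to Ddx39b, had a peak of 3737 bp that reached 3033 bp into the gene, and so, like Ddx39b, lay mostly downstream. Dhx29, which helps ribosomes scan structured leaders of mRNA, shared a peak of 3155 bp with Mtrex, itself an RNA helicase gene of the nuclear exosome pathway that starts 56 bp away on the other strand. The narrowest peaks of the group were at Dhx34, a factor of nonsense-mediated decay (1235 bp), and Dhx36, which unwinds G-quadruplexes (1376 bp).

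All 6 helicases of transcription, RNA processing and genome maintenance were marked, with a median width of 2862.5 bp. Dhx9 (RNA helicase A), which unwinds RNA-DNA hybrids and bridges transcription factors and RNA polymerase II, had a peak of 23434 bp (chr1:153479468-153502901), wider than 97.4% of all marked coding promoters. It reached 15241 bp upstream and 8192 bp downstream, into intron 4, and held no other TSS. The next gene start was that of Npl, 62385 bp away. The next widest of this group was Ddx17 at 4944 bp (chr15:79542865-79547808), and Dhx9 stood apart from the other 5 genes of the group.

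Ddx17 and its paralogue Ddx5, coregulators of transcription and partners of the microRNA-processing enzyme Drosha, had the highest CpG ratios of all helicase promoters at 1.06 and 1.01. Their peaks measured 4944 and 2620 bp, and that of Ddx5 also held the divergent TSS of Cep95, 720 bp away. Ddx20, of the SMN complex that assembles spliceosomal particles, had a peak of 3096 bp, and Ddx11, a DNA helicase of sister chromatid cohesion, of 2629 bp. Ddx1, of the tRNA ligase complex, had the narrowest at 1359 bp.

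Both mitochondrial helicases, Ddx28 and Dhx30, which take part in mitochondrial ribosome assembly, were marked. Dhx30 had a peak of 2879 bp that ended in exon 2. The peak of Ddx28 measured 1584 bp and covered 51.3% of this short gene of 1 exon. It also held the TSS of Dus2, 375 bp away. The less characterised genes Ddx59 (2505 bp), Dhx32 (1513 bp), Dhx57 (1356 bp) and Dhx40 (431 bp) were all marked. The peak of Dhx40 (chr11:86807133-86807563) was the narrowest at any helicase promoter, narrower than all but 1.28% of marked coding promoters, and began 183 bp downstream of the TSS. That of Dhx57 held the TSS of Morn2, 273 bp away.

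The germ cell helicases Ddx25 and Ddx43, known from testis, counted as marked, but neither TSS lay inside a peak. The peak counted for Ddx25 (chr9:35559451-35560551, 1101 bp) held the TSS of Pus3, a pseudouridine synthase gene transcribed in the opposite direction from 932 bp away. Its near edge was 923 bp upstream of the Ddx25 TSS and 78 bp of it fell in the promoter window, so Ddx25 was the marked gene closest to the limit. It was unmarked with a window of 500 bp on either side, and whether the mark belongs to Pus3 alone was not tested. Ddx43 had a peak of 480 bp (chr9:78395822-78396301) that began 45 bp downstream of the TSS, and the nearest other gene start was 17052 bp away. The next peak outside the window was at Ddx58, 5921 bp from the TSS, so no helicase gene lay just beyond the limit.

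None of the 3 genes placed in the innate immune group was marked. Each helicase gene was placed in a single role group, so any with a further role in immunity was counted elsewhere. Ddx58 (RIG-I) binds viral RNA with a triphosphate end and signals to interferon, Dhx58 (LGP2) modulates that signal, and Ddx60 is an interferon-induced helicase linked to it. The nearest peak of Ddx58 lay 5921 bp downstream of the TSS and was 265 bp wide, in intron 2. The gene held further peaks in intron 4 (1633 bp) and in intron 10 (3974 bp, chr4:40218246-40222219). Ddx60 had its nearest peak 32770 bp downstream, in intron 13 (5905 bp, chr8:61960859-61966763). Ddx58 and Ddx60 thus held H3K27ac peaks within the gene without a peak at the promoter. Dhx58 had no peak within the gene, and the nearest, 7764 bp upstream, was a peak of 2507 bp with the starts of Kat2a and Hspb9. Over all 10341 unmarked coding genes the median distance to a peak was 54492 bp (quartiles 17124 and 162435 bp), and 15.8% had a peak within 10 kb. None of these 3 genes became marked under any window, isoform or overlap tried. Whether they lacked signal or failed a threshold of the peak list cannot be read from positions.

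**Figure D3:**
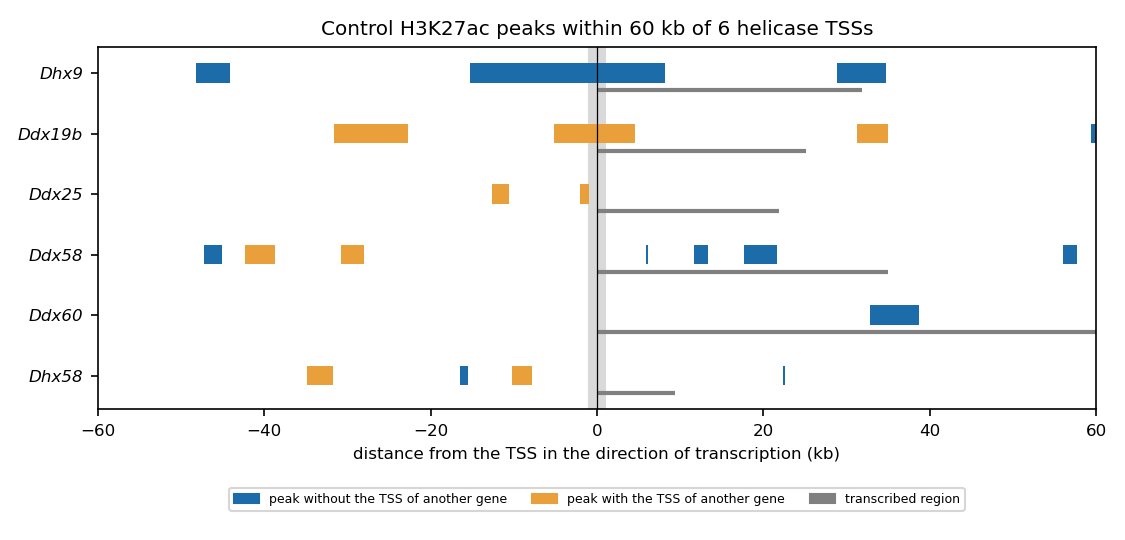
Control H3K27ac peaks (bars) within 60 kb of the TSS of 6 helicase genes, as distance from the TSS in kb in the direction of transcription (horizontal axis), with a row for each gene. Orange bars hold the TSS of another gene, blue bars do not, grey lines are the transcribed regions (that of Ddx60 runs on past the frame) and the grey band is the promoter window. Dhx9 and Ddx19b have peaks across the TSS, the peak of Ddx25 lies at the upstream edge of the window, and Ddx58, Ddx60 and Dhx58 have none in it.

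Other RNA helicases with different names were set beside them, from a list that includes eIF4A proteins, exosome and spliceosome helicases and helicases of antiviral and germ cell pathways. Of these 24 genes, 19 were marked (79.2%, 59.5 to 90.8%), beside 50.1% of all autosomal coding genes. The median width of their peaks was 2809 bp. The unmarked genes were Ifih1 (MDA5), the sensor of long double-stranded RNA, Helz2, an interferon-induced helicase, and Tdrd9, Tdrd12 and Mov10l1 of the germ cell piRNA pathway. Their nearest peaks lay 17568, 1777, 3965, 4771 and 61374 bp from the TSS. Among the marked genes were Znfx1 (9533 bp), D1Pas1 (4363 bp) and Ythdc2 (1153 bp). The list was not divided by role, so no share by pathway is given. The widest peaks were at Eif4a2 (26916 bp) and Eif4a1 (19753 bp), which encode the DEAD box helicase of translation initiation, and at Mov10 (15942 bp). Thus 3 of the 19 exceeded 10 kb, beside 10.2% of all marked coding genes. The peak of Eif4a1 also held the starts of Sox15, Mpdu1 and Cd68. Intervals for the shares of both lists overlapped.

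Helicase promoters were rich in CpG. In the 500 bp on either side of the TSS, the CpG observed over expected ratio, which compares the CpG count with that given by the C and G content, had a median of 0.795 for the helicases and 0.585 for all autosomal coding genes, whereas the median GC content was 56.8% and 55.5%. A ratio above 0.6 was found at 42 of 50 helicase promoters (84.0%), beside 48.7% of all. All 42 of these were marked (100%, 91.6 to 100%), whereas 81.4% of all coding promoters above 0.6 were. Of the 8 helicase promoters up to 0.6, 5 were marked (62.5%, 30.6 to 86.3%), beside 20.3% of all coding promoters in that range. The marked ones were Dhx35 (0.588), Ddx47 (0.562), Ddx28 (0.552), Ddx19b (0.514) and Dhx32 (0.299), and the unmarked ones Ddx58 (0.481), Ddx60 (0.392) and Dhx58 (0.175). Dhx32 was thus marked with a lower ratio than Ddx58 or Ddx60. The split at 0.6 belonged to this window. Over the 300 bases printed above, the unmarked Ddx58 had a ratio of 0.714, beside 0.754, 0.775 and 0.783 for the marked Dhx40, Dhx9 and Ddx46, and Ddx60 had 0.390. The part of CpG content in the mark was not tested.

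**Figure D4:**
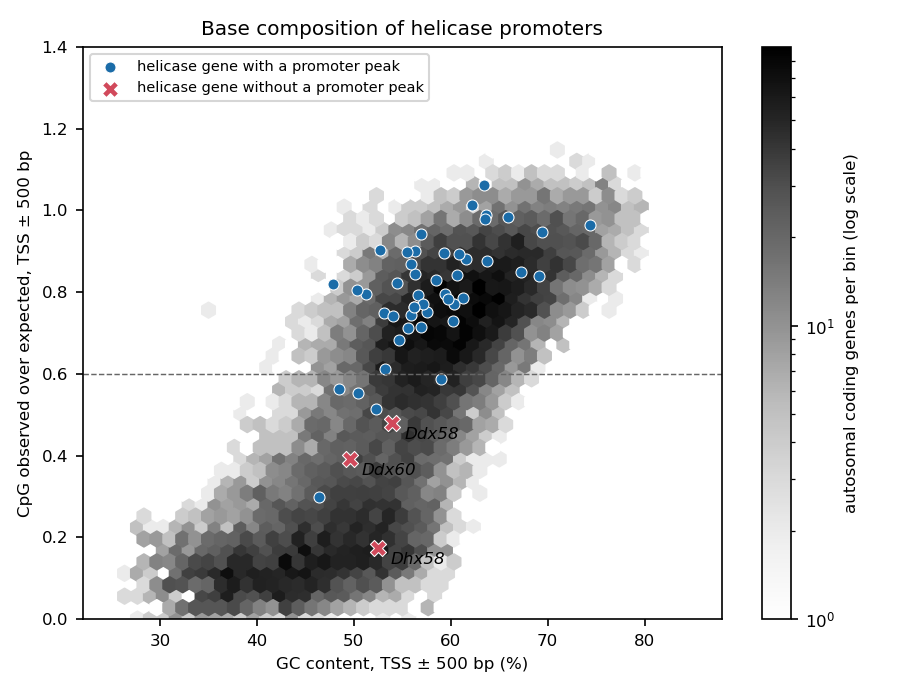
GC content in percent (horizontal axis) and CpG observed over expected ratio (vertical axis) over the 500 bp on either side of the TSS. Grey hexagons count all 20722 autosomal coding genes on a log scale, blue points are the 47 marked helicase genes, red crosses the 3 unmarked ones, and the dashed line is a ratio of 0.6. In this window all 3 crosses lie below the line, at 0.481, 0.392 and 0.175, together with 5 blue points.

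Short motifs were searched on both strands of the 300-base promoters, in 44 helicase promoters and 20085 autosomal coding promoters. None of the strings searched contains another, a promoter was counted once per motif, and a match is only a match of letters. The ETS site CCGGAAGT was found in 10 helicase promoters (22.7%), beside 5.28% of all. These were Dhx9, Ddx27, Dhx37, Ddx47, Dhx34, Dhx30, Ddx50, Dhx8, Ddx17 and Ddx39b. All of them were marked, as were 42 of the 44 helicase promoters searched. In the sequence of Dhx9 shown above it starts at base 155. The GC box GGGCGG was found in 29 (65.9%, beside 47.0%), the CCAAT box CCAAT in 21 (47.7%, beside 38.1%), the NRF1 site GCATGCGC in 5 (11.4%, beside 3.55%), the E-box CACGTG in 4 (9.09%, beside 7.89%) and the YY1 site ATGGCGGC in 2 (4.55%, beside 3.08%).

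The TATA box TATAAA was found in 3 helicase promoters (6.82%, beside 12.7% of all), those of Ddx58, Ddx60 and Ddx5. The core of the interferon-stimulated response element, the letters GAAA repeated after any 2 bases, was likewise found in 3 (6.82%, beside 3.38%), those of Ddx58, Ddx60 and Ddx49. Both unmarked promoters in the table thus held both motifs, as did none of the 42 marked ones. In the sequences shown above, the response element of Ddx58 starts at base 253, read on the other strand, and that of Ddx60 at bases 198 and 232. The letters TATAAA start at base 98 in Ddx58 and at base 254 in Ddx60. Relative to the RefSeq start these are positions -153 and 3, and whether either works as a TATA box was not tested. No test was made of these counts, and 2 promoters are too few to describe the unmarked state.

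The mark was also frequent at helicase genes without a close neighbour. A divergent start within 1 kb was found for 9 of 50 helicase genes, beside 8.57% of all coding genes, and the promoter peak held the start of another gene in 12 of 47 (25.5%), beside 27.9%. With another TSS within 2 kb, 11 of 11 helicase genes were marked, beside 81.2% of all such coding genes. Without one, 36 of 39 were marked (92.3%, 79.7 to 97.3%), beside 44.5% of all coding genes without one. Of the 9 helicase genes with a CpG ratio above 0.6 and a divergent start, Ddx25 alone had its TSS outside the shared peak.

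The 5 narrowest helicase peaks, those of Dhx40, Ddx43, Dhx16, Dhx33 and Ddx52, were alike in position. All lay wholly downstream of the TSS, beginning between 7 and 183 bp from it, and ended in intron 1. Among all 1133 coding genes with a peak under 1 kb, the TSS lay outside the peak in 51.4%, and the peak lay downstream in 45.4%. At 1 kb or more, the TSS was inside the peak in 41 of 42 helicase genes, Ddx25 being the exception. All 5 promoters had CpG ratios above 0.6, from 0.764 for Dhx40 to 0.988 for Ddx43, as did 42 of all 47 marked helicase promoters. Over all marked coding promoters, peaks under 1 kb made up 10.1% of those above 0.6 and 13.8% of those up to 0.6. Whether peak width goes with CpG content was not tested.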

How the data were processed

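H3K27ac was measured by ChIP-seq in control, NVP-2 and actinomycin D treated mESCs (2 replicates each). The authors trimmed reads with Cutadapt, aligned them with bwa meme to the mouse (mm10) and human genomes, used Picard (2.9.1) against duplicates and samtools (1.4) against low mapping quality, ran LanceOtron to call peaks, merged peaks within 2 kb, and filtered them by height over input and distance to ATAC-seq summits. The deposited list gives positions in base pairs, with no score. Merging and filtering set peak widths and which promoters lack a peak. Here, GENCODE M21 gene models and RefSeq promoters (GRCm38.p6; 44 of 50 members matched, 39 within 100 bp of the GENCODE TSS) were used. Where several peaks overlapped a promoter, the widest was taken. Shares have Wilson and medians order-statistic 95% intervals, for counting error only. Depth cannot be read from the list; the study's reporting summary gives unequal depths for the control libraries. The functions were tested on simulated data. Members, role groups, the list of other helicases, the naming rule (widest, narrowest and unmarked members, those that change with the window or isoform, shared peaks, paralogue pairs) and motifs were chosen with earlier results of these data known. Alternatives changed the window, isoform, overlap, peak width, neighbours and the composition window. Python 3.11.15 was used with numpy 2.4.6, scipy 1.17.1 and matplotlib 3.10.9.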

Additional observations from a re-analysis of the deposited data

How the results depend on the processing

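With a single pooled list, no replicate could be left out. No paired analysis was possible because the list does not separate the replicates and no result comes from a test. The share of marked helicase promoters lay between 84.0 and 94.0% under all alternatives but that which required the TSS inside a peak, where it was 82.0%, and no helicase promoter gained a mark. Marks were lost under some alternative by 7 genes, Ddx25, Ddx43, Ddx47, Ddx52, Dhx16, Dhx33 and Dhx40. The share of all coding promoters moved to 51.2% with 2 kb on either side, 45.2% with the TSS inside a peak, 44.6% with peaks of at least 1 kb, 52.3% with all isoforms, 48.6% with an overlap of at least 500 bp and 44.5% without another TSS within 2 kb. The median width at helicase promoters was 2558 bp with the TSS inside a peak, 2531.5 bp with peaks of at least 1 kb, 2505 bp with all isoforms and 2261.5 bp with an overlap of at least 500 bp, beside 1992 bp as reported, all within the interval of 1581 to 2815 bp. That at all coding promoters was 2315, 2454.5, 2176 and 2183 bp under these settings, so the helicase median was then above it, not below. The median of all coding promoters was 2034 bp without another TSS within 2 kb. The median CpG ratio of helicase promoters was 0.671 over 1 kb on either side and 0.866 from 250 bp before to 50 bp after the TSS. Of the 2 germ cell genes, 1 was marked with 500 bp on either side or with peaks of at least 1 kb, and 0 with the TSS inside a peak or with an overlap of at least 500 bp. Without another TSS within 2 kb, every gene left in the groups other than the innate immune was marked, among them 12 of 12 nucleolar and 8 of 8 splicing genes.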

Other observations

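Apart from the promoter peak, 13 further peaks lay within 10 helicase genes, 8 of them marked. Further peaks were thus found in 8 of 47 marked helicase genes, beside 3126 of 10381 marked coding genes, and the difference was not tested. The widest was in intron 1 of Dhx32 (17327 bp, chr7:133755101-133772427), beginning 10299 bp downstream of the TSS, beside a second peak of 1328 bp in the same intron. Dhx32 had the lowest CpG ratio of the marked helicase promoters, and its promoter peak measured 1513 bp. Dhx16, whose promoter peak was among the narrowest at 562 bp, had a peak of 11097 bp over its 3′ end that also held the TSS of 2310061I04Rik. Dhx9 had a peak of 5898 bp at exon 28, beginning 28847 bp from the TSS, in addition to its wide promoter peak. Dhx57 held a peak of 5305 bp in intron 12, Ddx54 one of 3909 bp in intron 7, Dhx30 one of 3230 bp in intron 5, Dhx35 one of 2243 bp in intron 12 and Ddx59 one of 1896 bp in intron 4. The remaining ones were those of Ddx58 and Ddx60. The list does not tell to which gene a peak within a gene belongs.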
